A study of Mus musculus with 12 samples.

Results

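Transcript levels of 9 genes of the tumour necrosis factor (TNF) family were compared across mouse macrophages and osteoclasts with and without lipopolysaccharide (LPS), the endotoxin of Gram-negative bacteria. The genes were 5 ligands, Tnf, Tnfsf9, Tnfsf10, Tnfsf12 and Tnfsf15, and 4 receptors, Tnfrsf1a, Tnfrsf1b, Tnfrsf9 and Fas. They were taken by symbol, and each symbol matched 1 Ensembl identifier among the 54532 genes of the expression table. All 9 were among the 11335 genes that reached 1 FPKM (fragments per kilobase of gene, scaled per library) in at least 3 of the 12 libraries and were tested. Tnfsf10 and Tnfsf15 reached that level in no untreated library, so both entered the test through their LPS-treated libraries alone. Each of the 4 groups held 3 libraries of total RNA from cultured cells of wild-type mice. Marrow cells were expanded with CMG, a source of the macrophage growth factor M-CSF, and then cultured in CMG alone (macrophages) or with RANKL, the cytokine that turns macrophages into bone-resorbing osteoclasts. The sample labels give RANKL as 100 ng/mL, whereas the growth protocol gives a range of doses up to that one, so the dose of each culture is uncertain. On day 5, cells of each type were left untreated or given LPS at 100 ng/mL for 3 h. All cells of the 4 groups were thus wild type and exposed to CMG, and the labels give no age or sex of the mice. The labels do not say whether the 3 libraries of a group came from separate mice or cultures, so p-values measure the spread between these libraries, which may be technical.

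TNF family ligands are mostly membrane proteins that act as trimers and can be released by proteases, and their receptors signal through death domains or through TRAF adaptors towards NF-kB, kinase cascades and cell death. In macrophages, Tnf is a classical early target of LPS sensing by Toll-like receptor 4, and TNF protein acts back on the same cells through its receptors. In bone, TNF can promote osteoclast formation together with RANKL, which is itself a TNF family ligand.

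The 250 bases before the RefSeq transcription start (build GRCm38.p6) are shown for 4 genes with contrasting patterns: Tnf, Tnfrsf1b and Fas, which stood highest in LPS-treated macrophages, and Tnfrsf9, which stood highest in osteoclasts. RefSeq starts were matched for 7 of the 9 genes, with 8 starts in all, and Tnfsf9 and Tnfsf12 had none in the table used. Each sequence runs 5′ to 3′ towards the start, and capitals mark matches on either strand to a loose NF-kB pattern (GGG, then any 5 bases, then CC), an interferon response pattern (a pair of GAAA with any 2 bases between them) or an AP-1 pattern (TGANTCA). The Tnf stretch is chr17:35202008-35202257 on the minus strand, that of Tnfrsf1b is chr4:145246871-145247120 on the minus strand, and that of Fas is chr19:34290409-34290658 on the plus strand. Tnfrsf9 has 2 starts on the plus strand, with stretches at chr4:150919905-150920154 and chr4:150927749-150927998.
Tnf: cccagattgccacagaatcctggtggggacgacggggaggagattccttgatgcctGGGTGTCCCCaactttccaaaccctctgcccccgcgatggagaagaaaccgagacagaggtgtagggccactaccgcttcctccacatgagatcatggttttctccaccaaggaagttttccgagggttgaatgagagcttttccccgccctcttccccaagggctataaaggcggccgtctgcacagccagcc
Tnfrsf1b: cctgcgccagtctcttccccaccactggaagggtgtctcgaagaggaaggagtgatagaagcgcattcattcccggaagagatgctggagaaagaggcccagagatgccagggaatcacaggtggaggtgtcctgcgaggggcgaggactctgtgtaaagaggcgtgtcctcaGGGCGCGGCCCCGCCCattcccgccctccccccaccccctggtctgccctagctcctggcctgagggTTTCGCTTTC
Fas: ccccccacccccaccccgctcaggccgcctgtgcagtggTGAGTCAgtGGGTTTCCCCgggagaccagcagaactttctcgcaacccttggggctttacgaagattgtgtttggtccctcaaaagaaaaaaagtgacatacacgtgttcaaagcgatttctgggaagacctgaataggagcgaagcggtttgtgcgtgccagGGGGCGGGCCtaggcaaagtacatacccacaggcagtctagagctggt
Tnfrsf9 upstream start: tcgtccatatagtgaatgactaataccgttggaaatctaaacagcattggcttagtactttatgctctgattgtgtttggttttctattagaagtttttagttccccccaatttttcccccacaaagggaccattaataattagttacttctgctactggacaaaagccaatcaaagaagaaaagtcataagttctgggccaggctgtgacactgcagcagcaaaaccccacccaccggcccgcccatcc
Tnfrsf9 downstream start: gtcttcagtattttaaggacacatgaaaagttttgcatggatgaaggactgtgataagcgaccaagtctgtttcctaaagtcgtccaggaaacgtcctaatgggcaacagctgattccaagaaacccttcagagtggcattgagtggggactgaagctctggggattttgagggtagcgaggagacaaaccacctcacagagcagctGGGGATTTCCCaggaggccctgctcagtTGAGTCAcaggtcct

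Of these stretches, that of Tnf held 1 NF-kB pattern match, 194 to 185 bases before the start. That of Tnfrsf1b held 3 overlapping NF-kB matches between 77 and 62 bases before the start and 1 interferon response match in the last 10 bases. The Fas stretch held 2 NF-kB matches and 1 AP-1 match, TGAGTCA. The downstream Tnfrsf9 start had 2 overlapping NF-kB matches and 1 AP-1 match, also TGAGTCA, whereas its upstream start had no match. The Tnfrsf1a stretch held 1 NF-kB match, and those of Tnfsf10 and Tnfsf15 held none. The loose NF-kB pattern occurred in 45.8% of all 32851 starts of the table, the interferon response pattern in 2.98%, the AP-1 pattern in 6.75% and the cyclic AMP response pattern TGACGTCA, which no start of these genes held, in 1.55%. A match describes letters only, and a stretch without a match says nothing of the factor.

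The 12 libraries held 15651759 to 20281444 recovered reads each, and 9728 to 10301 genes per library reached 1 FPKM. All 8 osteoclast markers examined, such as Ctsk and Calcr, were called higher in osteoclasts than in macrophages, and their summed level was 6.62 to 10.3 FPKM in untreated macrophages against 22600 to 23600 FPKM in untreated osteoclasts. Of the 6 macrophage markers, 5 were called lower in osteoclasts, where Adgre1, the F4/80 antigen, stood at 7.74% and Csf1r, the M-CSF receptor, at 70.4% of the untreated macrophage level. The sixth, Cd68, a lysosomal protein of phagocytes, was called higher there, at 209% of that level. Bulk RNA does not tell fewer cells of a type from less RNA per cell.

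Macrophages given LPS carried more mRNA of 8 of the 9 genes, and Tnfsf12 alone carried less. By limma with Benjamini-Hochberg adjustment at 0.05, 69.9% of all genes tested were called in this comparison, 36.8% higher and 33.1% lower. The libraries of both macrophage groups did not overlap for any of the 9 genes, as for 74.0% of all genes. The median log2 difference of the 9 genes was 3.58, against 0.02 over all genes tested. In osteoclasts, 7 of the 9 rose with LPS, Tnfrsf1a fell and Tnfsf12 was not called, where 17.7% of all genes were called, 11.1% higher and 6.59% lower. The median log2 difference there was 1.35, against 0.01 over all genes. The 9 genes were chosen with earlier results of these data known, and Tnfsf10 and Tnfsf15 entered through LPS-treated libraries alone. The counts and medians of the 9, here and below, thus describe these genes and are no evidence beyond them. The libraries of both osteoclast groups did not overlap for any of the 9 genes, as for 34.0% of all genes. Log2 differences were taken after adding 1 to each FPKM value, so that changes of low genes are understated, and they are relative to the typical gene of a library. Library sums of FPKM rose with LPS in macrophages, and rescaling to a fixed sum (TPM) put the median of all genes 0.555 lower after LPS there. The direction and call of each of the 9 genes in both LPS comparisons stayed the same under TPM and under quantile normalization. The split over all genes did not: macrophage calls were 4168 higher and 3753 lower as deposited, 1797 and 7933 under TPM and 3051 and 5193 under quantile normalization. Osteoclast calls were 1261 higher and 747 lower as deposited, 940 and 1221 under TPM and 947 and 1514 under quantile normalization.

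**Figure D1:**
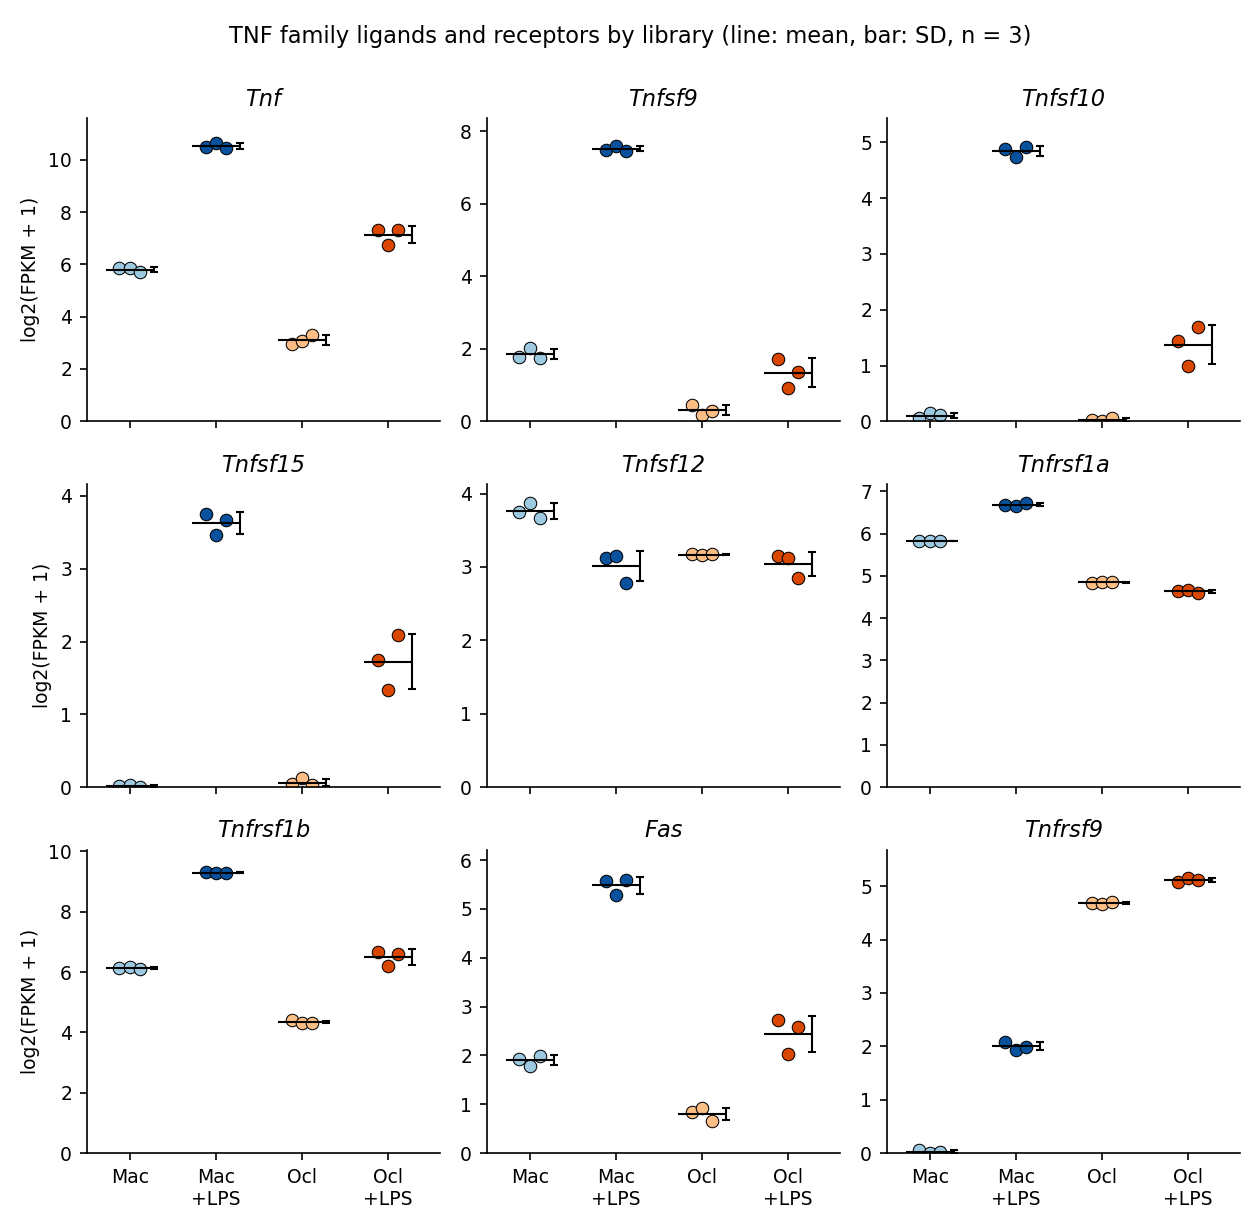
Levels of the 9 genes as log2(FPKM + 1), vertical axis, in macrophages (Mac) and osteoclasts (Ocl) with and without LPS, horizontal axis, on a scale of its own per gene. Points are the 3 libraries of a group, lines the mean and bars the SD. For Tnf, Tnfrsf1b and Fas the LPS-treated macrophages stand highest and untreated osteoclasts lowest, whereas for Tnfrsf9 both osteoclast groups stand above both macrophage groups.

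Tnf (ENSMUSG00000024401, chr17:35199381-35202007 on the minus strand of GRCm38) encodes the founding ligand of the family, and it was the most abundant of the 5 ligands in each group except untreated osteoclasts. Untreated macrophage replicates 1 to 3 held 57.3, 56.4 and 50.9 FPKM, and LPS-treated replicates held 1453, 1611 and 1388 FPKM. Untreated osteoclast replicates held 6.68, 7.51 and 8.83 FPKM, and LPS-treated replicates held 159, 107 and 159 FPKM. No 2 groups overlapped, and the order from low to high was untreated osteoclasts, untreated macrophages, LPS-treated osteoclasts and LPS-treated macrophages. LPS raised the mean 27.05-fold in macrophages (log2 difference 4.73, SE 0.14, limma adjusted p = 2.58e-11) and 18.5-fold in osteoclasts (4.03, SE 0.14, adjusted p = 3.28e-09). The osteoclast mean was 13.98% of the macrophage mean without LPS (log2 difference -2.69, limma adjusted p = 2.95e-09) and 9.56% with LPS (-3.40, limma adjusted p = 2.39e-10). The LPS effect was smaller in osteoclasts by 0.71 on the log2 scale, a difference of -0.71 (SE 0.20, limma adjusted p = 0.00943). That last call did not hold under other scalings: the value was -0.04 under TPM (adjusted p = 0.86) and 0.11 under quantile normalization (adjusted p = 0.638).

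Tnfsf9 (ENSMUSG00000035678, chr17:57105325-57107757 on the plus strand), the ligand of the costimulatory receptor 4-1BB that Tnfrsf9 encodes, rose far more with LPS in macrophages than in osteoclasts. Untreated macrophages held 2.44, 3.03 and 2.37 FPKM and LPS-treated macrophages 177, 191 and 175 FPKM. Untreated osteoclasts held 0.378, 0.138 and 0.228 FPKM and LPS-treated osteoclasts 2.31, 0.905 and 1.57 FPKM. The osteoclast level after LPS thus stayed below that of untreated macrophages, with no overlap between any 2 groups. The ratio of means was 69.3 in macrophages (log2 difference 5.66, SE 0.16, limma adjusted p = 1.60e-11). In osteoclasts it was 6.44 (log2 difference 1.02, SE 0.16, limma adjusted p = 7.55e-04), resting on 17 reads without and 114 reads with LPS over 3 libraries each. The scaled read ratio there was 6.57, with a 95% exact counting interval of 3.93 to 11.7. A scaled read ratio is that of the reads pooled over the 3 libraries of each group, each sum divided by the summed FPKM denominators of its libraries, so it is not the plain ratio of the read numbers. Counting intervals here cover counting error only, not the spread between libraries. The osteoclast level was 9.48% of the macrophage level without LPS and 0.881% with LPS. Between the cell types the LPS effects differed by -4.63 (SE 0.22, limma adjusted p = 7.31e-09). Both 5.66 in macrophages and -4.63 between the cell types were the largest of the 9 genes on the log2(FPKM + 1) scale. Under quantile normalization both stayed the largest, at 5.29 and -4.32. Under TPM the difference did, at -3.74, but the macrophage effect was 5.34 against 5.76 for Tnfsf10. The macrophage ratio of means was larger for Tnfsf15, Tnfsf10 and Tnfrsf9. With a pseudocount of 0.1 the LPS effects differed by -4.25 for Tnfrsf9 and by -3.81 for Tnfsf9. Tnfsf9 shares 192 exonic bases with Gm11110 on the opposite strand, and whether counting used strand is not stated, so its values are uncertain to that extent.

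Tnfsf10 (ENSMUSG00000039304, chr3:27317028-27342427 on the plus strand) encodes TRAIL, a ligand that can trigger death of receptor-bearing cells. It was near absent without LPS, at 0.041, 0.105 and 0.077 FPKM in macrophages and 0.010, 0 and 0.045 FPKM in osteoclasts. LPS-treated macrophages held 28.3, 25.7 and 29.1 FPKM and LPS-treated osteoclasts 1.70, 0.998 and 2.23 FPKM. Only the untreated groups overlapped. Reads over the 3 libraries went from 27 to 6076 in macrophages, a scaled read ratio of 371.8 with a counting interval of 255 to 565 (log2 difference 4.74, SE 0.13, limma adjusted p = 1.62e-11). In osteoclasts they went from 5 to 472, a scaled read ratio of 92.4 with an interval of 39.3 to 286 (log2 difference 1.35, SE 0.13, limma adjusted p = 1.98e-05). Without LPS the cell types were not called different (log2 difference -0.08, 95% interval -0.37 to 0.21, limma adjusted p = 0.612). That value is held near 0 by the added 1 FPKM: the scaled read ratio, from 27 reads in macrophages and 5 in osteoclasts, was 0.244 with a counting interval of 0.0734 to 0.643, and voom gave a log2 difference of -2.17 (adjusted p = 0.0701). With LPS osteoclasts stood 3.47 lower on the log2 scale, at 5.92% of the macrophage mean. Osteoclast minus macrophage, the LPS effects differed by -3.39 (SE 0.19, limma adjusted p = 2.31e-08), but by -1.94 with an adjusted p of 0.142 when limma's voom was run on the recovered reads.

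Tnfsf15 (ENSMUSG00000050395, chr4:63727084-63745113 on the minus strand) encodes TL1A, a T-cell costimulator that binds death receptor 3. Its untreated levels were 0.013, 0.025 and 0 FPKM in macrophages and 0.032, 0.088 and 0.018 FPKM in osteoclasts. With LPS, macrophages held 12.5, 10.0 and 11.7 FPKM and osteoclasts 2.37, 1.51 and 3.26 FPKM. The untreated groups overlapped, and the LPS-treated groups stood apart from them and from each other. Reads went from 3 to 1583 in macrophages, a scaled read ratio of 871.8 with a counting interval of 298 to 4232, and the log2 difference was 3.61 (SE 0.15, limma adjusted p = 5.38e-10). In osteoclasts they went from 8 to 434, a scaled read ratio of 53.1 with an interval of 26.7 to 124, and the log2 difference was 1.66 (SE 0.15, limma adjusted p = 9.09e-06). The LPS-treated osteoclast mean was 20.9% of the LPS-treated macrophage mean, the highest such share among the 4 ligands that rose. The responses of both cell types differed by -1.95 (SE 0.21, limma adjusted p = 8.01e-06), and by -3.81 with limma's voom on the recovered reads (adjusted p = 0.0112).

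Tnfsf12 (ENSMUSG00000097328, chr11:69686250-69695849 on the minus strand) encodes TWEAK and was the 1 ligand whose level was not raised by LPS in either cell type. Untreated macrophages held 12.5, 13.7 and 11.6 FPKM, and LPS-treated macrophages 7.70, 7.87 and 5.87 FPKM. Untreated osteoclasts held 8.01, 7.93 and 8.0 FPKM and LPS-treated osteoclasts 7.87, 7.71 and 6.22 FPKM. It fell in macrophages by 0.75 on the log2 scale (SE 0.10, limma adjusted p = 3.78e-05). In osteoclasts the log2 difference of -0.13 was not called (95% interval -0.35 to 0.10, limma adjusted p = 0.456), although the 3 LPS-treated libraries lay just below the 3 untreated ones. The test of the difference between both responses gave 0.62 (SE 0.15, limma adjusted p = 0.00319). Under TPM the macrophage fall was -1.42 and the difference between both responses 1.22, both called. Untreated osteoclasts were lower than untreated macrophages by 0.60 on the log2 scale, a difference of -0.60 (limma adjusted p = 1.94e-04), and with LPS the groups overlapped at a difference of 0.02 (95% interval -0.20 to 0.25, limma adjusted p = 0.839). Tnfsf12 shares 731 exonic bases with the read-through gene Tnfsfm13 on the same strand, which leaves its values uncertain with or without the use of strand.

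Tnfrsf1a (ENSMUSG00000030341, chr6:125349362-125362484 on the plus strand) encodes TNF receptor 1, the death-domain receptor found on most cells, and it moved in opposite directions in the cell types. Macrophage libraries held 55.4, 55.4 and 55.5 FPKM without LPS and 101, 99.9 and 105 FPKM with LPS. Osteoclast libraries held 27.6, 28.2 and 27.9 FPKM without LPS and 23.8, 24.5 and 23.1 FPKM with LPS. No 2 groups overlapped. The level rose in macrophages 1.84-fold (log2 difference 0.87, SE 0.03, limma adjusted p = 2.60e-10) and fell in osteoclasts to 0.853 of the untreated mean (log2 difference -0.22, SE 0.03, limma adjusted p = 5.87e-04). The macrophage difference was 0.23 under TPM and 0.13 under quantile normalization, both called, and the osteoclast difference was -0.30 and -0.31. The LPS effects differed by -1.09 (SE 0.05, limma adjusted p = 2.77e-09), by -0.52 under TPM and by -0.44 under quantile normalization, both called. The osteoclast mean was 50.3% of the macrophage mean without LPS and 23.4% with LPS.

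Tnfrsf1b (ENSMUSG00000028599, chr4:145213463-145246870 on the minus strand) encodes TNF receptor 2, which lacks a death domain and binds TRAF2. Macrophages held 68.6, 70.5 and 68.1 FPKM without LPS and 636, 622 and 623 FPKM with LPS. Osteoclasts held 20.1, 19.1 and 18.8 FPKM without LPS and 102, 72.3 and 96.5 FPKM with LPS. The groups stood apart in the same order as those of Tnf. The mean rose 9.08-fold in macrophages (log2 difference 3.16, SE 0.10, limma adjusted p = 2.94e-11) and 4.66-fold in osteoclasts (2.15, SE 0.10, adjusted p = 2.08e-08). The LPS effects differed by -1.02 (SE 0.13, limma adjusted p = 4.38e-05), which was -0.415 under TPM (adjusted p = 0.00764) and -0.31 with an adjusted p of 0.0569 under quantile normalization. Osteoclasts held 28% of the macrophage level without LPS and 14.4% with LPS.

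The balance of both TNF receptor mRNAs, which does not depend on how a library is scaled, shifted towards Tnfrsf1b with LPS in both cell types. The ratio of Tnfrsf1b to Tnfrsf1a FPKM was 1.24, 1.27 and 1.23 in untreated macrophages and 6.32, 6.22 and 5.94 with LPS. It was 0.727, 0.676 and 0.676 in untreated osteoclasts, where Tnfrsf1a was the more abundant, and 4.26, 2.96 and 4.17 with LPS. On the log2 scale the LPS shift was 2.31 in macrophages, a 4.94-fold change of the ratio, and 2.44 in osteoclasts, a 5.41-fold change. Each shift exceeded the spread between libraries, yet the exact two-sided permutation test of 3 against 3 libraries gave p = 0.1, the smallest value it allows. The osteoclast ratio was lower than the macrophage ratio by 0.847 on the log2 scale without LPS, a difference of -0.847, and by a difference of -0.717 with LPS, again with exact permutation p = 0.1 each. The LPS shifts of the cell types differed by 0.13 (SE 0.177), a difference that was not tested.

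**Figure D2:**
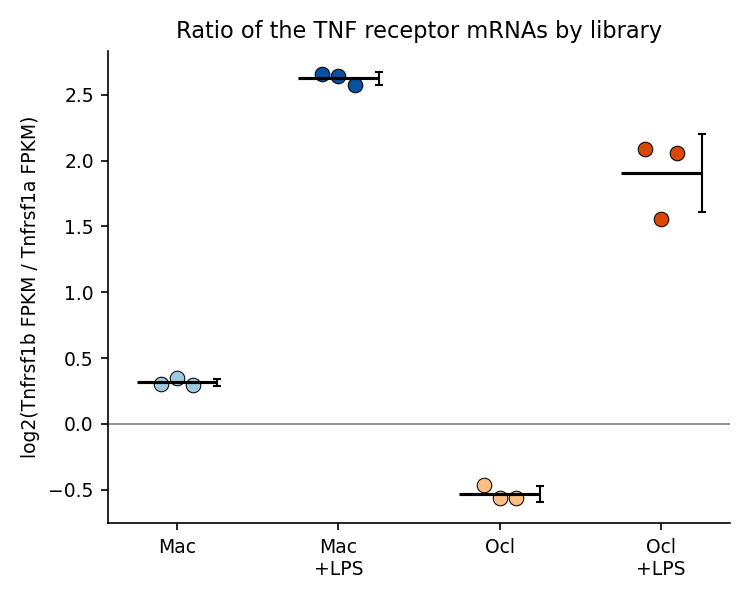
log2 of the ratio of Tnfrsf1b to Tnfrsf1a FPKM (vertical axis) in each library of the 4 groups (horizontal axis: Mac, macrophages; Ocl, osteoclasts); lines are means and bars SD of 3 libraries. Untreated osteoclasts lie below 0, between -0.565 and -0.46, and each LPS-treated group lies above both untreated groups, with 1 LPS-treated osteoclast library, replicate 2, below the others of its group.

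Fas (ENSMUSG00000024778, chr19:34290666-34327772 on the plus strand) encodes the death receptor of Fas ligand. Macrophages held 2.80, 2.46 and 2.99 FPKM without LPS and 46.8, 38.1 and 47.5 FPKM with LPS. Osteoclasts held 0.782, 0.887 and 0.588 FPKM without LPS and 5.64, 3.06 and 4.96 FPKM with LPS. The LPS-treated osteoclast libraries all lay above the untreated macrophage libraries, and no 2 groups overlapped. The mean rose 16.0-fold in macrophages (log2 difference 3.58, SE 0.16, limma adjusted p = 8.43e-10) and 6.05-fold in osteoclasts (1.64, SE 0.16, adjusted p = 1.45e-05). The osteoclast level was 27.4% of the macrophage level without LPS and 10.3% with LPS, and the LPS effects differed by -1.95 (SE 0.22, limma adjusted p = 1.15e-05), or by -1.17 under TPM (adjusted p = 8.82e-04). The gene length behind the deposited Fas values, 1801 bases, was not the 2062 bases of its merged exons in GENCODE M21, so its level depends on an exon model not used here, and so, through the added 1 FPKM, do its log2 differences. With a pseudocount of 0.1 its LPS effect in osteoclasts was 2.42 and the difference between the cell types -1.53, both called.

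Tnfrsf9 (ENSMUSG00000028965, chr4:150914562-150946102 on the plus strand), which encodes 4-1BB, the receptor of the Tnfsf9 product, was the exception among the 9 in that it was higher in osteoclasts. Untreated macrophages held 0.048, 0 and 0.016 FPKM, or 3, 0 and 1 reads, and LPS-treated macrophages 3.25, 2.83 and 2.98 FPKM. Osteoclasts held 24.6, 24.3 and 24.97 FPKM without LPS and 32.8, 34.5 and 33.4 FPKM with LPS. Both osteoclast groups lay above both macrophage groups. The scaled read ratio of untreated osteoclasts to untreated macrophages was 1155, with a counting interval of 451 to 4241 (log2 difference 4.65, SE 0.05, limma adjusted p = 2.49e-15), and with LPS it was 11.1 (log2 difference 3.11, adjusted p = 6.33e-14). LPS raised the level in macrophages from 4 to 342 reads, a scaled read ratio of 141 with an interval of 54.7 to 521 (log2 difference 1.98, SE 0.05, limma adjusted p = 4.11e-12), and in osteoclasts 1.36-fold (0.43, SE 0.05, adjusted p = 4.45e-05). The LPS effects differed by -1.54 (SE 0.07, limma adjusted p = 2.80e-09), and by -6.65 with voom on the recovered reads, which adds no constant of 1 FPKM. The ligand and the receptor of this pair thus stood highest in different groups, Tnfsf9 in LPS-treated macrophages and Tnfrsf9 in LPS-treated osteoclasts.

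Over the 9 genes, untreated osteoclasts were lower than untreated macrophages for 6, higher for Tnfrsf9 and not called for Tnfsf10 and Tnfsf15, where 77.8% of all genes were called, 38.8% higher and 39.0% lower as deposited (4401 and 4421 genes, against 2760 and 6457 under TPM). The libraries did not overlap for 7 of the 9, as for 81.4% of all genes. With LPS, 7 were lower, Tnfrsf9 was higher and Tnfsf12 was not called, where 83.9% of all genes were called, 40.9% higher and 43.0% lower as deposited (4638 and 4871 genes, against 5224 and 4306 under TPM and 5194 and 4328 under quantile normalization, with the same counts among the 9). Here 8 of the 9 did not overlap, as did 83.6% of all genes. The median log2 difference of the 9 was -0.97 without and -2.80 with LPS. The 4 comparisons share groups, so these counts are not independent of each other. The LPS effects differed between the cell types for each of the 9, by the test of the difference itself: 8 were more positive in macrophages and Tnfsf12 was less negative in osteoclasts, where 56.6% of all genes were called, 26.6% in the direction of Tnfsf12 and 30.0% in the other. Over all genes that split was 3012 and 3401 as deposited, 7175 and 1572 under TPM and 4090 and 2734 under quantile normalization, and among the 9 it was 1 and 7 under TPM and 1 and 6 under quantile normalization. The median difference of the 9 was -1.54, against -0.01 over all genes.

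**Figure D3:**
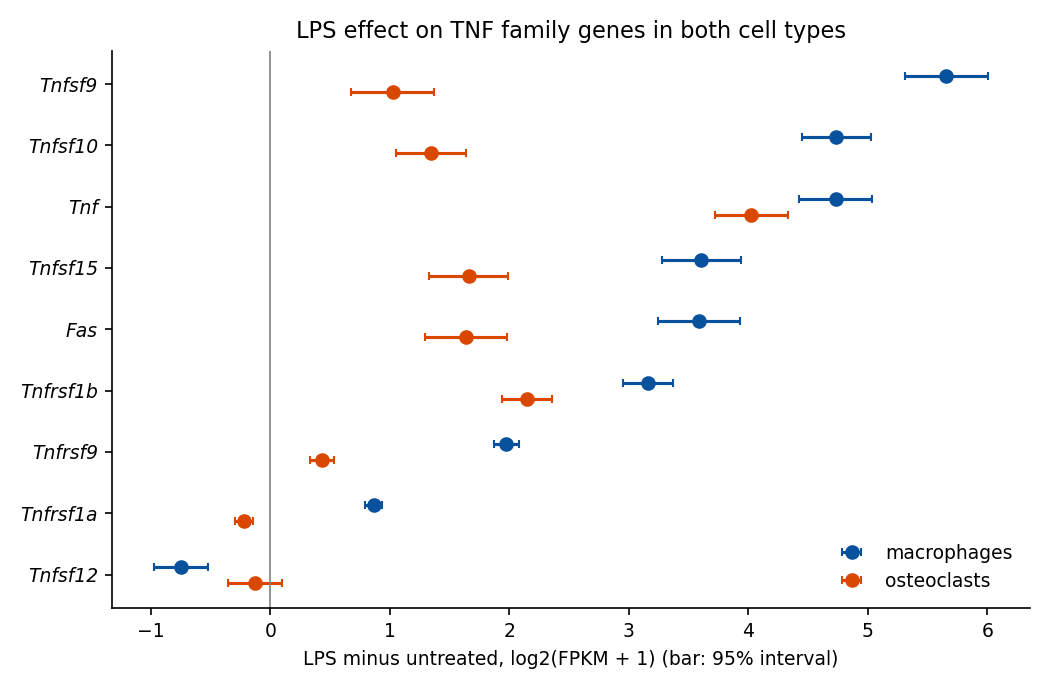
LPS minus untreated log2(FPKM + 1), horizontal axis, for each of the 9 genes, vertical axis, in macrophages (blue) and osteoclasts (orange), with 95% intervals from limma. On this scale Tnf has the largest osteoclast value, 4.03 against 4.73 in macrophages, and Tnfsf9 has the widest gap, 5.66 against 1.02. Tnfrsf1a lies on both sides of 0. The osteoclast ratio of means was larger for Tnfsf10 and Tnfsf15, 89.5 and 51.6, than for Tnf, 18.5.

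LPS-treated osteoclast replicate 2 stood below its group for 6 of the 9 genes, was the middle library for Tnfsf12 and the highest for Tnfrsf1a and Tnfrsf9. The 6 are all but Tnfrsf9 of the 7 genes called higher there, and the library was likewise the lowest of its group for 53.5% of the 1261 genes called higher with LPS in osteoclasts. It also had the fewest recovered reads, 15651759, and differed most from replicate 1 over all genes, with a chi-square of 11.6 per degree of freedom against 2.54 to 8.08 for the other replicate pairs. Without it, the LPS difference in osteoclasts was 4.22 for Tnf, 1.23 for Tnfsf9, 1.53 for Tnfsf10, 1.86 for Tnfsf15, 2.30 for Tnfrsf1b and 1.85 for Fas, each called by limma. The difference between both LPS effects of Tnf was then -0.52 (limma adjusted p = 0.00573). No call among the 9 genes was lost when it was left out. Of the 6 macrophage markers, 4 were also lowest in this library and Csf1r and Cd68 were highest in it: LPS-treated osteoclast replicates 1 to 3 held 73.1, 42.5 and 70.9 FPKM of Adgre1, 3.35, 1.62 and 3.41 FPKM of Mrc1, 1.42, 1.15 and 1.91 FPKM of Mertk and 0.348, 0.130 and 0.292 FPKM of Cx3cr1. Csf1r stood at 286, 304 and 289 FPKM and Cd68 at 1351, 1446 and 1325 FPKM. Adgre1 rose with LPS in osteoclasts (log2 difference 0.85, limma adjusted p = 0.00258) and in macrophages (0.64, adjusted p = 0.00302), whereas the other 5 were not called in osteoclasts. The part of these markers in the results was not tested.

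Markers of other cells were low but not all absent. The summed level of 4 T-cell markers was 3.81 to 4.04 FPKM in untreated osteoclasts and 0.562 to 0.734 FPKM in untreated macrophages, from Trac for the most part in osteoclasts and from Cd4 in macrophages. Of the defining markers, Cd3g was listed at 0 in all 12 libraries and Cd3e in 11 of them. The 5 stromal and osteoblast markers summed to 18.6 to 25 FPKM in untreated macrophages and 20.4 to 24.9 FPKM with LPS, mostly Col1a1, and to at most 0.58 FPKM in osteoclasts. The 3 dendritic-cell markers went from at most 0.201 FPKM to between 5.10 and 5.71 FPKM with LPS in macrophages, mostly Xcr1. In osteoclasts they summed to at most 0.132 FPKM without and 0.336 to 0.494 FPKM with LPS. Xcr1 was called higher with LPS there too (log2 difference 0.31, limma adjusted p = 0.00956). The 3 natural killer, 4 B-cell and 4 neutrophil and progenitor markers summed to at most 0.689 FPKM in any library. Of the 2 endothelial markers, Emcn was near 0 and Cdh5 made up most of a sum of 0.973 to 1.10 FPKM in untreated macrophages, 2.19 to 2.57 FPKM with LPS and at most 0.14 FPKM in osteoclasts; Cdh5 was called higher with LPS in macrophages (log2 difference 0.73) and not called in osteoclasts. In osteoclasts given LPS, the 6 macrophage markers stood at 0.679% (Cx3cr1), 0.814% (Mrc1), 7.01% (Mertk), 9.28% (Adgre1), 69.7% (Csf1r) and, called higher in osteoclasts, 176% (Cd68) of the LPS-treated macrophage level, beside 0.881% for Tnfsf9, 5.92% for Tnfsf10, 9.56% for Tnf, 10.3% for Fas, 14.4% for Tnfrsf1b, 20.9% for Tnfsf15, 23.4% for Tnfrsf1a, 101.6% for Tnfsf12 and 1112% for Tnfrsf9. The part of macrophages remaining in the osteoclast cultures in these levels was not tested.

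Of 13 other ligands only Tnfsf4 and Tnfsf14 were expressed enough to be tested. Tnfsf4, which encodes OX40 ligand, rose in both cell types, by a log2 difference of 3.28 in macrophages and 0.75 in osteoclasts, and Tnfsf14, which encodes LIGHT, rose in macrophages by 0.68. Of 24 other receptors 14 were tested: in macrophages 5 rose, 8 fell and 1 was not called with LPS, with a median of -0.38, and in osteoclasts 2 rose, 3 fell and 9 were not called, with a median of -0.10. Over all genes, 36.8% were called higher and 33.1% lower in macrophages, and 11.1% and 6.59% in osteoclasts. The osteoclast counts were 3 and 3 under TPM and 2 and 5 under quantile normalization. Cd40, the costimulatory receptor of antigen-presenting cells, rose from 4.50, 4.21 and 4.09 FPKM to 299, 290 and 310 FPKM in macrophages and from 0.318, 0.330 and 0.570 FPKM to 30.5, 22.8 and 33.5 FPKM in osteoclasts. Its log2 differences were 5.84 and 4.40 (limma adjusted p = 8.35e-13 and 5.93e-10). Tnfrsf14, the herpesvirus entry mediator, rose by 1.23 in macrophages and 1.49 in osteoclasts. Tnfrsf21, or death receptor 6, fell in both, with log2 differences of -1.11 and -0.20. Tnfrsf8 was called higher in macrophages, with means of 0.137 FPKM without and 1.86 FPKM with LPS, but not called in osteoclasts. Tnfrsf26 was called lower in both, from a mean of 2.05 to 0.995 FPKM in macrophages and from 0.595 to 0.293 FPKM in osteoclasts.

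Among genes that carry or limit the receptor signal, the inhibitor gene Tnfaip3 and the adaptor gene Traf1 rose with LPS in both cell types. Of 25 listed signalling genes, all tested, 19 rose, 3 fell and 3 were not called in macrophages, with a median of 0.53, and 10 rose, 1 fell and 14 were not called in osteoclasts, with a median of 0.11. The same calls took 36.8% and 33.1% of all genes in macrophages and 11.1% and 6.59% in osteoclasts. Under TPM the macrophage counts were 9 higher and 11 lower, and under quantile normalization 15 and 5, so the direction of smaller changes depended on the scaling. The osteoclast counts were 9 and 1, and 10 and 3. The genes named next kept their direction and call under both. Tnfaip3, which encodes the inhibitor A20, went from 6.27 ± 0.159 to 502.1 ± 9.36 FPKM in macrophages and from 19.6 ± 1.02 to 44.3 ± 0.624 FPKM in osteoclasts (SD, n = 3), log2 differences of 6.11 and 1.14. Traf1, an adaptor of TNF receptor 2, went from 0.269 ± 0.0428 to 43.3 ± 1.57 FPKM in macrophages and from 13.1 ± 0.254 to 30.8 ± 0.749 FPKM in osteoclasts (SD, n = 3). The inhibitors of apoptosis Birc3 and Cflar rose by 3.93 and 3.68 in macrophages and by 0.92 and 0.85 in osteoclasts. Map3k14, the kinase of the noncanonical NF-kB pathway, was the 1 gene that fell in osteoclasts, with a log2 difference of -0.47, and is named after its value was seen. The difference between both LPS effects was called for 20 of the 25 genes, 17 lower and 3 higher in osteoclasts, a split that was 10 and 11 under TPM and 13 and 5 under quantile normalization. Over all genes that difference was called for 56.6%.

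The 6 genes of TNF and receptor shedding were all tested. In macrophages 5 rose and Adam10, named after its value was seen, fell with LPS, with a median of 0.80. In osteoclasts 3 rose and 3 were not called, with a median of 0.17. The 5 include Timp3, which encodes a protease inhibitor, with macrophage means of 1.53 FPKM without and 4.24 FPKM with LPS. Timp3 was not called in osteoclasts. These counts and medians thus pool genes of different roles and give no direction of shedding. As above, the shares of all genes called were 36.8% higher and 33.1% lower in macrophages and 11.1% and 6.59% in osteoclasts. The counts under TPM were 3 higher and 2 lower in macrophages and 2 and 2 in osteoclasts, and under quantile normalization 4 and 1, and 2 and 2. Both genes named next kept their calls. Rhbdf2, a cofactor of the TNF-releasing protease, rose by 2.01 in macrophages and 0.53 in osteoclasts. Adam17, that protease, rose from 37.1, 39.2 and 41.2 FPKM to 88.5, 89.3 and 90.5 FPKM in macrophages, a difference of 1.17. In osteoclasts Adam17 went from 13, 11.4 and 12.1 FPKM to 16.3, 13.8 and 17.5 FPKM, a difference of 0.35 (limma adjusted p = 0.00666).

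**Figure D4:**
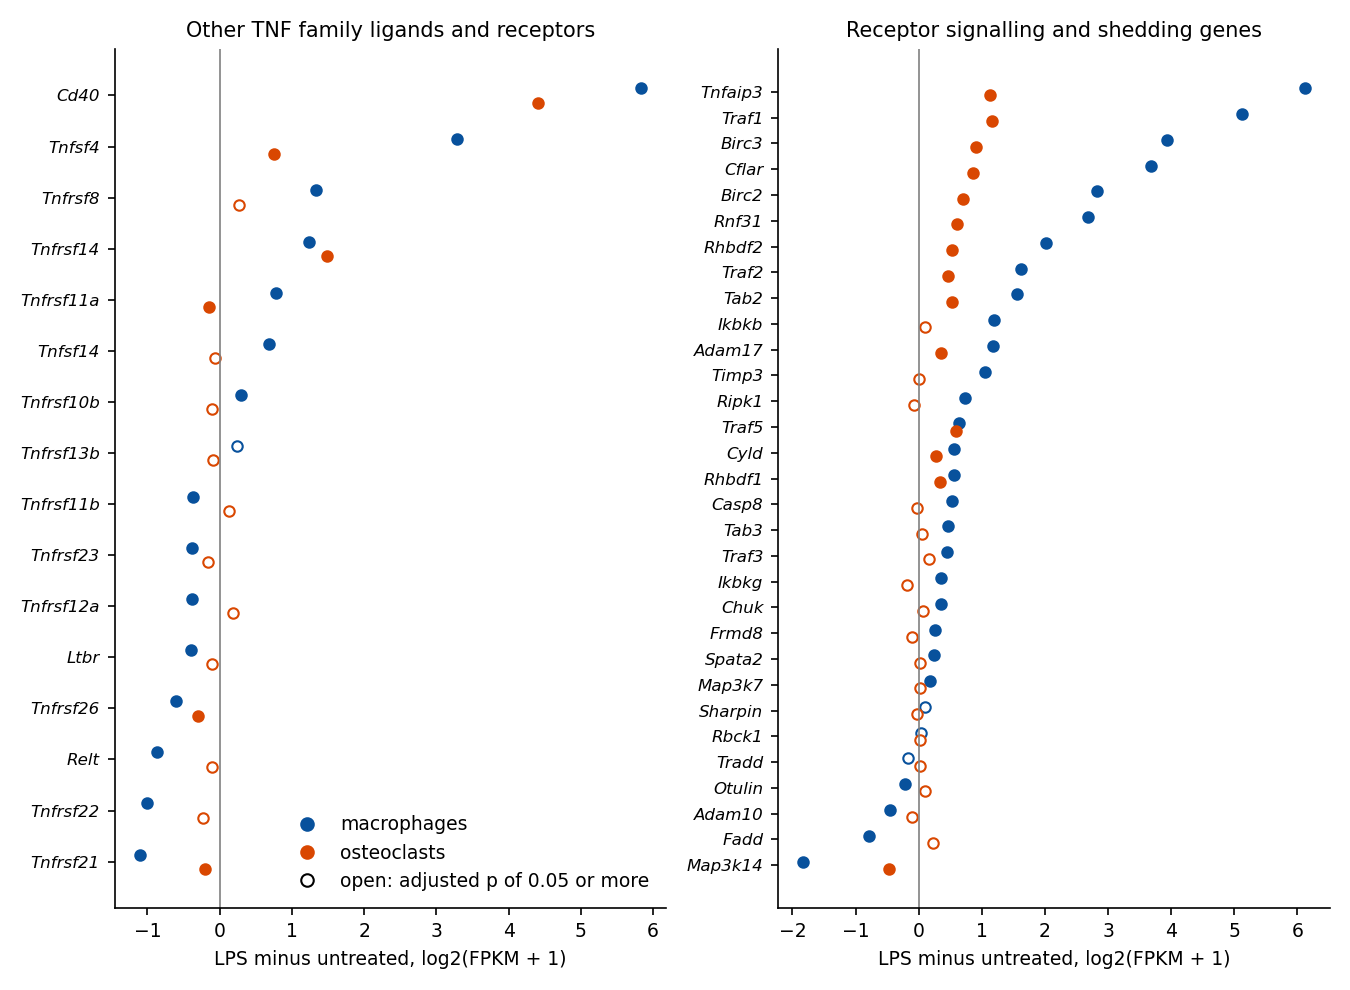
LPS minus untreated log2(FPKM + 1), horizontal axes, for other TNF family ligands and receptors (left) and for signalling and shedding genes (right), 1 gene per line, in macrophages (blue) and osteoclasts (orange). Filled points were called by limma and open points were not. Cd40 lies far to the right in both cell types, 5.84 and 4.40, whereas Tnfaip3 and Traf1 do so in macrophages, 6.11 and 5.13, and stay near 1 in osteoclasts.

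The genes whose pattern lay nearest to each of the 9 were found by the root mean square difference of log2(FPKM + 1), each gene centred on its mean over the 12 libraries. These distances are descriptive, since all genes share the same libraries and groups. Nearest to Tnf were Parp14, Marcksl1 and Nfkbiz, at 0.352, 0.405 and 0.427, with Pearson r of 0.992, 0.989 and 0.99 over the 12 libraries. Nearest to Tnfsf9 was AA467197 at 0.238, followed by Mmp13, a collagenase, and Olr1, a scavenger receptor. Nearest to Tnfsf15 was Vcam1, an adhesion molecule, at 0.157, with mean levels of 0.245 and 11.9 FPKM in macrophages and 0.0213 and 2.28 FPKM in osteoclasts, without and with LPS. Tnfsf10 lay nearest to Batf2, Pde4b and Nod2, and Tnfsf12 to Scoc, Pbx2 and Lpgat1. Tnfrsf1a lay nearest to Rhoh, Adam9 and Gab1, and Tnfrsf1b to Ddx58, Dram1 and Xaf1, the last of which was also among the 3 nearest to Fas, after Phf11d and Gm20559. Nearest to Tnfrsf9 was Steap4, a metalloreductase, at 0.258, with 28.5 and 52.6 FPKM in osteoclasts and 0.00912 and 3.17 FPKM in macrophages, without and with LPS.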

How the data were processed

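RNA of 12 libraries, 3 in each of 4 groups taken from the labels, was sequenced. The authors deposited FPKM values per Ensembl gene. The submitters' processing notes name fastp, STAR, featureCounts, DESeq2 and mm10, with no versions, and the annotation and the use of strand are not given in the sources used here. From the deposited FPKM values, whole reads were recovered within a tolerance of 0.02 for 25787 of the 25854 genes above 0 (99.7%). The merged exon length of GENCODE M21 on GRCm38 gave such reads for 25015 of the 25854 genes (96.8%). The denominators recovered with the reads followed median-of-ratios size factors and departed by up to 25.8% from read totals. Values are thus relative to the typical gene, which is inferred and stated in no label. A total of 15651759 to 20281444 reads per library was recovered. Chi-square values of replicate pairs, 2.54 to 11.6 per degree of freedom, exceeded sampling noise.

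A filter kept the 11335 genes that reached 1 FPKM in 3 or more libraries. Limma 3.58.1 in R 4.3.3 fitted 4 group means over all 12 libraries to log2(FPKM + 1), using eBayes with its trend option. Two-sided p-values were adjusted over these genes (Benjamini-Hochberg) and called under 0.05. Comparisons were LPS against none per cell type, osteoclasts against macrophages without and with LPS, and the difference of the LPS effects, osteoclasts minus macrophages. Receptor ratios were compared by exact permutation. Counting intervals are exact at 95%. The limma steps were also run on simulated reads with a fixed spread and changes planted only in genes with many reads. That run does not cover changes of genes with few reads.

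The 9 genes and the lists were chosen with earlier results of these data known. All 9 are named. Of the lists, called genes could be named from the largest absolute difference, at most 4 per list and contrast, and the 3 nearest genes by pattern were named. Each limma fit was repeated with a pseudocount of 0.1, without the filter, for genes averaging 5 FPKM or more, and with TPM, quantile normalization, only the groups compared (except for the difference of the LPS effects), a replicate block, no variance trend, voom on the recovered reads or 1 library left out. Promoters are those of RefSeq on GRCm38.p6. Gene positions are from GENCODE M21.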

Additional observations from a re-analysis of the deposited data

Results flagged for a closer look

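The LPS effect differed between macrophages and osteoclasts for each of the 9 genes by limma's test of the difference (Benjamini-Hochberg adjusted p under 0.05), which 56.6% of all genes tested also passed. The difference, osteoclasts minus macrophages on the log2(FPKM + 1) scale, was -4.63 for Tnfsf9, -3.39 for Tnfsf10, -1.95 for Tnfsf15, -1.95 for Fas, -1.54 for Tnfrsf9, -1.09 for Tnfrsf1a, -1.02 for Tnfrsf1b, -0.71 for Tnf and 0.62 for Tnfsf12. The calls of Tnf, Tnfrsf1b and Tnfsf10 were lost in some other settings, which are given below. Among the 9, Tnfrsf1a alone was called in opposite directions, higher with LPS in macrophages and lower in osteoclasts. Tnfrsf11a, of the other receptors listed and named after its value was seen, was called in the same opposite directions. Its means without and with LPS were 36.1 and 62.95 FPKM in macrophages and 56.4 and 50.6 FPKM in osteoclasts.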

How the results depend on the processing

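The LPS effects in each cell type and the contrasts of osteoclasts with macrophages kept the direction and the call of each of the 9 genes under every alternative with all libraries that gave a value, and Tnfsf15 gave none among genes averaging 5 FPKM or more. For the difference of the LPS effects, that of Tnf reversed to 0.114 under quantile normalization (limma adjusted p = 0.638) and was -0.0391 under TPM (adjusted p = 0.86), that of Tnfrsf1b was -0.311 under quantile normalization (adjusted p = 0.0569), and that of Tnfsf10 was -1.94 with voom (adjusted p = 0.142). The cause was not tested. Among genes averaging 5 FPKM or more, of which there are fewer, 4851 genes were called for LPS in macrophages against 7921, 5427 against 8822 between untreated cell types, 5694 against 9509 with LPS and 4018 against 6413 for the difference of the LPS effects.

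Leaving out 1 library lost no call among the 9 genes. It reversed the uncalled Tnfsf12 contrast of the LPS-treated groups, to -0.0947 without macrophage replicate 3, -0.0301 without osteoclast replicate 1 and -0.017 without osteoclast replicate 2, within a range of -0.0947 to 0.118 over all such fits. Genes called for LPS in osteoclasts were then 1432 to 2031, against 2008. The receptor ratio shifts kept their direction in each case.

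Same-numbered libraries deviated together little (correlations of their deviations from -0.0702 to 0.104). Such weak values cannot settle whether the replicate number is a pairing, and the labels do not say. With a replicate block, 7914 genes were called for LPS in macrophages, 1930 in osteoclasts, 8787 and 9512 between cell types without and with LPS and 6422 for the difference, and no call among the 9 genes changed. For the receptor ratio the block gave the same shifts, with an exact sign-flip permutation p of 0.25, the smallest that 3 pairs allow.

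With 3 libraries per group, values resting on under 30 reads, those of Tnfsf10, Tnfsf15 and Tnfrsf9 in untreated macrophages and of Tnfsf9, Tnfsf10 and Tnfsf15 in untreated osteoclasts, are limited by depth, and the counting intervals cover only part of the error of their fold changes.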
